A study of Mus musculus with 12 samples.

Results

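The GABA-A receptor subunit genes described here are the 7 genes Gabra2, Gabra3, Gabra5, Gabrb1, Gabrb2, Gabrg1 and Gabrg3, chosen by gene symbol from the 24490 rows of a deposited table of mouse dorsal root ganglion (DRG) expression. Each was found on a single row. The table gives FPKM (fragments per kilobase of transcript, scaled to the mapped fragments of the library), a level corrected for transcript length, so that subunits can be set side by side within a sample. RNA was sequenced from DRG taken at all spinal levels of adult male C57Bl/6 mice, in 3 groups of 4 samples. Intact ganglia were snap frozen, with 1 mouse per sample. Dissociated samples held cells from 2 mice, released by dispase, collagenase and DNAse and not sorted. MACS-sorted samples held cells from 8 mice, dissociated in the same way and then passed over a magnetic column that kept back cells bound by a cocktail of antibodies to non-neuronal cells. All mice were killed with pentobarbital before the ganglia were taken, and no other agent is named in the labels for any group. The number of mice pooled differed between the groups, and so the spread between samples is a spread between single mice in intact ganglia and between pools in the other groups. The 7 genes are not the whole family: 12 further GABA-A subunit genes are listed in the table, and they are given below by their counts alone.

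GABA-A receptors are chloride channels opened by the transmitter GABA, each built of several subunits around a central pore. Alpha and beta subunits form the GABA binding site, and a gamma subunit beside an alpha subunit forms the site at which benzodiazepines bind. Sensory neurons hold an unusually high internal chloride level, maintained by the cotransporter encoded by Slc12a2, so that GABA depolarises their terminals, which is the basis of presynaptic inhibition in the spinal cord.

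Several of the members are neighbours in the genome (build mm10, coordinates from the deposited table). On chromosome 5, Gabrg1 at chr5:70751047-70842617 and Gabra2 at chr5:70961057-71095849 lie on the minus strand with 118 kb between them, and Gabrb1 at chr5:71700016-72137244 lies 604 kb beyond Gabra2 on the plus strand. On chromosome 7, Gabrg3 at chr7:56724242-57386871 and Gabra5 at chr7:57407669-57510009 lie on the minus strand, 20.8 kb apart. Gabrb2 lies at chr11:42419757-42632591 on the plus strand and Gabra3 at chrX:72432676-72656246 on the minus strand.

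The 250 bases before the start of transcription are shown for Gabra2, the member with the highest level, and for its neighbour Gabrg1 and Gabra5, whose levels were low after sorting. They are RefSeq sequences of build GRCm38.p6, read 5′ to 3′ on the strand of the gene, with CG dinucleotides in capitals. They span chr5:71095850-71096099 for Gabra2, chr5:70842618-70842867 for Gabrg1 and chr7:57510060-57510309 for Gabra5, all upstream of annotated exons.
Gabra2: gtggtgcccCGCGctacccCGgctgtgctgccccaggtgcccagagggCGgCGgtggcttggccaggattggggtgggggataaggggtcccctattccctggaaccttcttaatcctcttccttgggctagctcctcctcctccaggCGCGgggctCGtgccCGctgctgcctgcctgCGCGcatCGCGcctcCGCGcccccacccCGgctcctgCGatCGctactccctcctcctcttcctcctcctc
Gabrg1: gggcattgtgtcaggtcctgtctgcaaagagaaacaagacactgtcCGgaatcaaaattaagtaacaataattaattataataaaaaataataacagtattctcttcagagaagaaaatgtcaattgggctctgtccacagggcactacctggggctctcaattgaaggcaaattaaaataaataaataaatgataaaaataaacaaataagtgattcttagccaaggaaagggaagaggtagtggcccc
Gabra5: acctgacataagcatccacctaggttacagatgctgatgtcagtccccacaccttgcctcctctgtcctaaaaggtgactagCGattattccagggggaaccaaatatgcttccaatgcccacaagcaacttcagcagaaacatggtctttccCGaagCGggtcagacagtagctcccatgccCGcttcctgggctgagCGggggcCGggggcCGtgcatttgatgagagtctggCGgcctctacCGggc
These upstream stretches differed in base composition. That of Gabra2 held 18 CG dinucleotides and was 70% G or C, that of Gabra5 held 9 and was 56.4%, and that of Gabrg1 held 1 and was 35.6%. Over 32851 mouse promoters of the same length the median was 6 CG dinucleotides, and 21.7% of them held at least as many as Gabra2 while 18.8% held no more than Gabrg1. The GC box GGGCGG, searched on both strands, was present before Gabra2 and absent from the other two, against 32.7% of all promoters. The TATA box TATAAA, found in 12.4% of all promoters, the cAMP response element TGACGTCA, found in 1.55%, and the AP-1 site TGACTCA, found in 4.46%, were each absent from these 3 stretches. Among the members not shown, the GC box was present before Gabrb2, also low after sorting, and before Gabrg3. The TATA box was present before Gabrb2 and Gabra3, and Gabrb1 had neither. The starts used for these members lay 84 to 683 bases from the deposited gene ends, and all stretches but that of Gabrb2 overlapped an annotated exon. All these matches are descriptions of letters in a window and no binding was measured.

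The deposited table gives no read counts. The spacing of the lowest FPKM values over 6677 genes with 1 matching transcript, taken with an assumed fragment length of 200 bases, gave estimated depths between 13850000 and 19950000 fragments per sample. Some libraries stood apart. The red blood cell genes took 4.11% and 5.16% of the summed FPKM in MACS-sorted 3 and 4, against 0.553% and 0.794% in MACS-sorted 1 and 2 and at most 0.213% elsewhere, and intact 1 was the lowest intact sample for Gabra2, Gabrb2 and Gabrg1. As a check of the preparations, the summed FPKM of 6 satellite glia markers ranged from 381 to 520 in dissociated samples and from 83.9 to 124 in MACS-sorted samples, with Kcnj10, Slc1a3 and Aqp4 under 0.5 FPKM in every sorted sample. Most of the sorted sum was Glul, at 100.3 ± 12.4 FPKM against 149.6 ± 10.4 in dissociated samples. Fabp7 averaged 4.04 FPKM in sorted and 262.5 FPKM in dissociated samples. The summed FPKM of 8 large-diameter neuron markers ranged from 839 to 1039 in dissociated samples and from 81.2 to 154 in MACS-sorted samples, with none of the 8 under 0.5 FPKM throughout. The 10 nociceptor markers summed to between 1749 and 1866 in dissociated samples and to between 1652 and 2636 in MACS-sorted samples. Calca, which did not pass between these groups, held a large part of both sums, at 1014 ± 60.9 and 936.5 ± 176.1 FPKM. Counts of single markers are given with the comparisons below.

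Gabra2, an alpha subunit, had the highest level of the 7 in every group. Its FPKM was 12.8, 28.4, 27.2 and 26.1 in intact 1 to 4, and 9.27, 9.94, 10.8 and 8.31 in dissociated 1 to 4. It was 18.4, 21.6, 7.74 and 25.7 in MACS-sorted 1 to 4. Every dissociated sample lay below every intact sample, whereas MACS-sorted 3 lay below all dissociated samples and the other three above them. Gabrg1, a gamma subunit, was next in intact and dissociated samples. Its FPKM was 3.78, 4.87, 5.75 and 5.03 in intact samples and 5.09, 5.15, 6.32 and 7.62 in dissociated samples. In MACS-sorted samples it was 0.976, 0.286, 0.780 and 0.382, with no overlap with either of the other groups. Gabrg1 was the only member whose deposited gene ends matched those of a GENCODE transcript, and by the estimated depths its sorted values rested on 21.0 to 62.6 fragments, against 289.4 to 560.9 in the other samples.

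**Figure D1:**
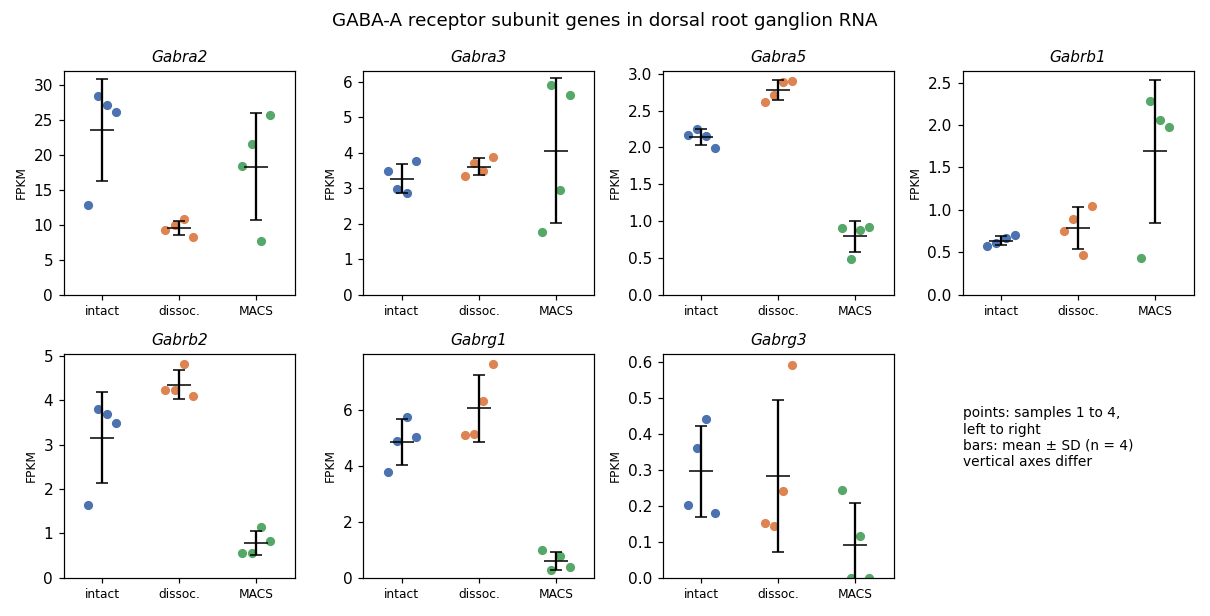
FPKM of each of the 7 subunit genes (vertical axes, linear, differing between panels) in intact, dissociated (dissoc.) and MACS-sorted (MACS) samples; points are samples 1 to 4 from left to right and bars the mean and SD of 4 samples, cut at 0. Gabrg1, Gabrb2 and Gabra5 show sorted points below all others, Gabra2 shows intact 1 and MACS-sorted 3 apart from their groups, and Gabrg3 is listed at 0 in MACS-sorted 2 and 4.

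Gabra3 and Gabra5, the other alpha subunits among the members, differed in their spread. Gabra3 was 3.49, 2.97, 2.88 and 3.76 FPKM in intact samples, 3.35, 3.70, 3.48 and 3.89 in dissociated samples, and 1.75, 5.92, 2.96 and 5.63 in MACS-sorted samples. The sorted values straddled those of both other groups, with MACS-sorted 2 and 4 high and 1 and 3 low. Gabra5 was 2.17, 2.25, 2.15 and 1.99 FPKM in intact samples, 2.62, 2.71, 2.89 and 2.90 in dissociated samples, and 0.902, 0.478, 0.871 and 0.922 in MACS-sorted samples. The 3 groups of Gabra5 values did not overlap.

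Of the beta subunits, Gabrb2 was 1.64, 3.81, 3.68 and 3.49 FPKM in intact samples, 4.24, 4.22, 4.83 and 4.10 in dissociated samples, and 0.568, 0.568, 1.15 and 0.840 in MACS-sorted samples. Its groups did not overlap, and intact 1 lay below the other intact samples. Gabrb1 was 0.574, 0.606, 0.664 and 0.699 FPKM in intact samples, 0.747, 0.890, 0.463 and 1.05 in dissociated samples, and 0.433, 2.29, 2.05 and 1.98 in MACS-sorted samples. MACS-sorted 1 was the lowest of all 12 samples for Gabrb1 and the other sorted samples were the highest. Gabrg3, the other gamma subunit, had the lowest mean in each group, at 0.295 ± 0.126 FPKM in intact (SD, n = 4), 0.282 ± 0.210 in dissociated and 0.0900 ± 0.116 in MACS-sorted samples. Scaled by the estimated depths, its values stood in ratios of whole numbers no higher than 14, each matched to within 0.1. It was listed at 0 in MACS-sorted 2 and 4. These are the smallest whole numbers that fit, and the fragments themselves were not counted. If they are the counts, differences in Gabrg3 were barely measurable at this depth.

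The order of the levels changed between preparations. In intact ganglia the mean FPKM ran Gabra2, Gabrg1, Gabra3, Gabrb2, Gabra5, Gabrb1 and Gabrg3, and the ranges of Gabra3 and Gabrb2, and of Gabrb2 and Gabra5, overlapped. In dissociated samples it ran Gabra2, Gabrg1, Gabrb2, Gabra3, Gabra5, Gabrb1 and Gabrg3, and the ranges of Gabrb1 and Gabrg3 alone overlapped. Within each of the 4 dissociated samples Gabrb1 still lay above Gabrg3. In MACS-sorted samples it ran Gabra2, Gabra3, Gabrb1, Gabra5, Gabrb2, Gabrg1 and Gabrg3. There, Gabra2 lay above Gabra3 and Gabrg1 above Gabrg3 without overlap, and the ranges of the neighbours between Gabra3 and Gabrg1 overlapped. Within each of the 4 sorted samples Gabra3 still lay above Gabrb1. Gabrb1 lay above Gabra5 in 3 of the 4, Gabra5 above Gabrb2 in 2 and Gabrb2 above Gabrg1 in 3.

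As a share of the summed FPKM of the 7 members, Gabra2 made up 61.1% ± 6.22 in intact samples (SD, n = 4), 35.0% ± 3.87 in dissociated samples and 67.6% ± 12.8 in MACS-sorted samples. Gabrg1 made up 13.1% ± 1.77, 22.0% ± 3.39 and 2.79% ± 2.1 in the same order. Gabrb2 made up 8.13% ± 1.0, 15.9% ± 1.05 and 3.50% ± 2.59. The share of Gabrb1 was 1.74% ± 0.409 and 2.88% ± 0.910 in intact and dissociated samples, and ranged from 1.86% to 13.1% in MACS-sorted samples. The members' sum itself was 38.0 ± 8.94 FPKM in intact, 27.4 ± 1.61 in dissociated and 26.4 ± 8.72 in MACS-sorted samples. Without Gabra2 it was 14.4 ± 1.70, 17.8 ± 1.76 and 8.02 ± 2.25 FPKM. These are shares of the 7 genes and not of all GABA-A receptor RNA: 3 of the 12 further subunit genes had group means between 12.3 and 27.9 FPKM.

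**Figure D2:**
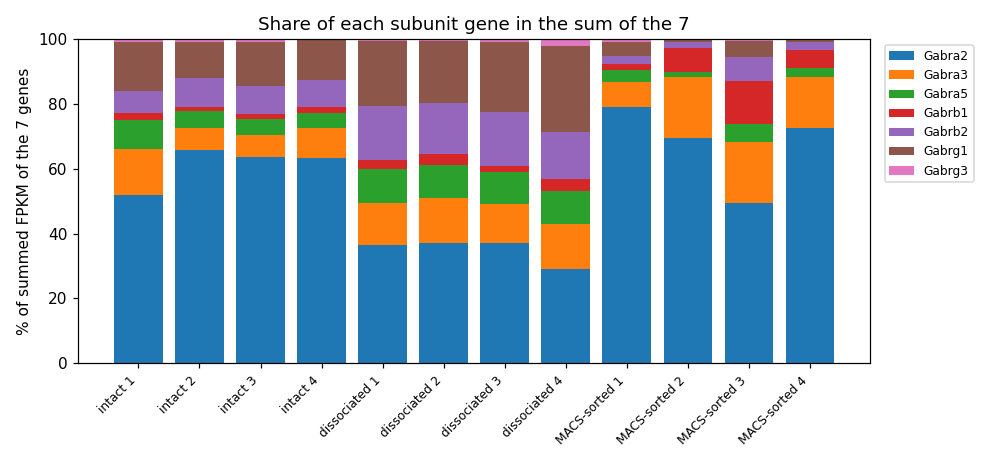
Share of each subunit gene in the summed FPKM of the 7 genes (vertical axis, percent), with 1 bar for each of the 12 samples. Gabra2 takes 51.9% to 65.6% in intact, 29.2% to 37.1% in dissociated and 49.4% to 79.1% in MACS-sorted samples, and the Gabrg1 and Gabrb2 bands are thinnest in the sorted samples.

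Comparison of MACS-sorted with dissociated samples asks which RNAs differed after the sort. The samples were separate pools of mice, and so the number of mice per pool differed along with the sort. Gabrg1, Gabrb2 and Gabra5 fell, Gabra2, Gabra3 and Gabrb1 did not pass the test, and Gabrg3 lay under the filter on low values. Tests were made with limma on log2(FPKM + 0.1) over 12038 genes that averaged 1 FPKM or more in the 8 samples, with Benjamini-Hochberg adjusted p-values. On that scale fold changes of low genes are understated. Of the 7 members 6 were tested, and 0 rose and 3 fell, where 18.8% of all tested genes rose and 27.7% fell. Their median log2 fold change was -0.85, against -0.04 over all tested genes.

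Gabrg1 fell from 6.05 ± 1.19 to 0.606 ± 0.327 FPKM (mean ± SD over 4 samples each), with a log2 fold change of -3.23 (SE 0.32, adjusted p = 3.9e-05, limma). Gabrb2 fell from 4.35 ± 0.325 to 0.783 ± 0.279 FPKM, a log2 fold change of -2.38 (SE 0.22, adjusted p = 2.4e-05, limma). Gabra5 fell from 2.78 ± 0.141 to 0.793 ± 0.211 FPKM, a log2 fold change of -1.72 (SE 0.22, adjusted p = 0.00015, limma). For each of these genes every sorted sample lay below every dissociated sample. With a pseudocount of 1 the log2 fold changes were -2.14, -1.60 and -1.08 in the same order, and under quantile scaling that of Gabra5 was -1.09. By the study's 3 criteria, which add a log2 ratio of means beyond 0.5 and more than 5 FPKM on average in whichever group is higher, only Gabrg1 was called lower among the members, where 12.5% of tested genes were called lower and 8.15% higher.

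Gabra2 had means of 9.57 ± 1.04 FPKM in dissociated and 18.4 ± 7.67 FPKM in MACS-sorted samples, a log2 fold change of 0.81 with a 95% interval from 0.10 to 1.52 and an adjusted p of 0.060 by limma. Without MACS-sorted 3 the log2 fold change was 1.18 and the adjusted p 0.00021, and it also passed under 3 other scalings. Without MACS-sorted 3 and 4 together, an alternative chosen after seeing the data, it was 1.06 with an adjusted p of 0.00031, and 2 members met the criteria. Gabrb1 had means of 0.787 ± 0.248 and 1.69 ± 0.846 FPKM, a log2 fold change of 0.85 with an interval from -0.23 to 1.93 and an adjusted p of 0.18 by limma. Without MACS-sorted 1 it was 1.36, with an adjusted p of 0.0041. Gabra3 had a log2 fold change of 0.01 with an interval from -0.74 to 0.77 and an adjusted p of 0.98 by limma. Gabrg3 means differed by -0.192 FPKM (p = 0.14, exact two-sided permutation test, for which the smallest possible p is 0.029).

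The fall in Gabrg1, Gabrb2 and Gabra5 went with a fall in 8 of 8 large-diameter neuron markers and 6 of 6 satellite glia markers. Also lower were 5 of 6 Schwann cell markers, 5 of 6 fibroblast markers and all 3 macrophage markers tested. Of 6 endothelial markers 0 passed in either direction, and of 8 pan-neuronal markers 3 rose and 2 fell. All 7 red blood cell marker rows tested and 8 of 10 nociceptor markers rose, and 1 nociceptor marker fell. Hba-a2 stood on more than 1 of these rows, and Hba-a1, at 0 FPKM in both groups, was not tested. The part of these cells in the members' values was not tested. In RNA from mixed cells, fewer cells of a type and less RNA per cell cannot be told apart.

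**Figure D3:**
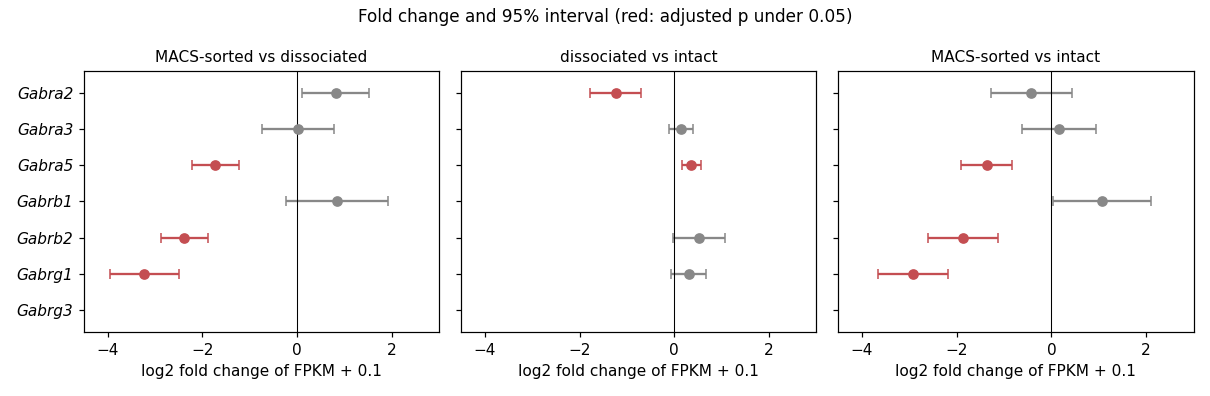
Log2 fold change of FPKM + 0.1 (horizontal axes) with its 95% interval for each tested subunit gene in the 3 comparisons, red where the limma adjusted p is under 0.05 and grey otherwise; genes under the filter have no point. Gabrg1, Gabrb2 and Gabra5 lie at -3.23, -2.38 and -1.72 in MACS-sorted against dissociated samples, and Gabra2 at -1.23 in dissociated against intact samples.

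Comparison of dissociated with intact samples asks which RNAs differed between digested cells and snap frozen ganglia. The groups also differed in the number of mice per sample, and this and the steps of handling cannot be told apart. Gabra2 fell from 23.6 ± 7.29 to 9.57 ± 1.04 FPKM, with a log2 fold change of -1.23 (SE 0.24, adjusted p = 0.0093, limma), with every dissociated sample below every intact sample. Of 5 members tested among 12392 genes, 1 rose and 1 fell, where 14.8% of all tested genes rose and 7.79% fell. Gabra2 alone was called by the 3 criteria, where 2.76% of tested genes were called lower and 4.29% higher. Intact 1, at 12.8 FPKM, was the intact sample nearest to the dissociated range, and without it the log2 fold change was -1.51.

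Gabra5 rose from 2.14 ± 0.110 to 2.78 ± 0.141 FPKM, a log2 fold change of 0.36 (SE 0.09, adjusted p = 0.024, limma), with every dissociated sample above every intact sample. It no longer passed when dissociated 2, 3 or 4 or intact 3 or 4 was left out, with adjusted p-values between 0.052 and 0.068 by limma, or with all 12 samples in the fit (adjusted p = 0.20). Gabrb2 means were 3.15 ± 1.02 and 4.35 ± 0.325 FPKM, a log2 fold change of 0.52 with an adjusted p of 0.15 by limma. Without intact 1 it was 0.24 and the adjusted p 0.047. For Gabrg1 the log2 fold change was 0.31 with an interval from -0.06 to 0.67, and for Gabra3 it was 0.14 with an interval from -0.10 to 0.39. Neither passed, with adjusted p-values of 0.20 and 0.37 by limma. Gabrb1 and Gabrg3 lay under the filter, and their means differed by 0.151 FPKM (p = 0.31) and -0.0136 FPKM (p = 0.91) by the exact two-sided permutation test. In the same comparison 6 of 6 endothelial markers, 5 of 8 large-diameter neuron markers, 4 of 8 pan-neuronal markers and 2 of 6 satellite glia markers rose. All 6 fibroblast markers and 5 of 6 macrophage markers fell, and of 10 nociceptor markers 2 rose and 1 fell. The endothelial markers summed to between 19.9 and 23.8 FPKM in intact and between 37.1 and 49.0 FPKM in dissociated samples. Their part in the members' values was not tested.

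Comparison of MACS-sorted with intact samples sets the sorted cells beside the undisturbed ganglion. It shares its samples with both comparisons above and is not independent of them. Gabrg1, Gabrb2 and Gabra5 were lower in every sorted than in every intact sample, with log2 fold changes of -2.92 (SE 0.33), -1.86 (SE 0.33) and -1.36 (SE 0.24). Their adjusted p-values by limma were 0.00015, 0.0018 and 0.0019. With a pseudocount of 1 the log2 fold changes were -1.88, -1.19 and -0.82, and under quantile scaling those of Gabrb2 and Gabra5 were -1.12 and -0.57, with adjusted p-values of 0.026 and 0.035. In the same comparison 6 of 7 large-diameter neuron markers tested, 5 of 6 satellite glia, 6 of 6 Schwann cell, 6 of 6 fibroblast and 5 of 5 macrophage markers tested fell. All 7 red blood cell marker rows tested, 6 of 10 nociceptor markers and 5 of 8 pan-neuronal markers rose, and 1 pan-neuronal marker fell. Hba-a2 stood on more than 1 of these rows, and Hba-a1, at 0 FPKM in both groups, was not tested. Of 6 endothelial markers 0 passed in either direction. The part of these cells in the members' values was not tested. Of 6 members tested among 12234 genes, 0 rose and 3 fell, where 14.1% of all tested genes rose and 20.6% fell. By the 3 criteria 0 members were called, where 7.54% of tested genes were called higher and 10.7% lower. The higher group's mean stayed under 5 FPKM for each of the 3 genes, with Gabrg1 at 4.86 ± 0.816 FPKM in intact samples, and without intact 1 Gabrg1 met the criteria, giving 1 member. Gabra2 had a log2 fold change of -0.42 with an interval from -1.28 to 0.43 and an adjusted p of 0.42. Gabrb1 had 1.07 with an interval from 0.04 to 2.11 and an adjusted p of 0.10, and without MACS-sorted 1 it was 1.58 with an adjusted p of 0.0012. Gabra3 had 0.16 with an interval from -0.62 to 0.93. Gabrg3 means differed by -0.206 FPKM (p = 0.086, exact two-sided permutation test).

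Over the 12 samples the genes whose log2(FPKM + 0.1) most resembled each member were sought among the 12283 genes averaging 1 FPKM or more. The points share their libraries and fall into 3 preparations, so the Pearson r values are descriptions. For Gabrg1 the nearest were Sv2b, Htr7 and Dgkb, each at an r of 0.99. For Gabra5 they were Calb1, Wls and Tspan18 at 0.99, and for Gabrb2 they were Kcna2, Rapgef4 and Frmpd4 at 0.99. The nearest to Gabra2 were 2610005L07Rik, Rrp1b and Nrf1 at 0.91, 0.91 and 0.90. Those for Gabra3 were Jmjd7, 6330419J24Rik and Rprm at 0.93, 0.93 and 0.87, and those for Gabrb1 were Cdc5l, Cdh10 and Id4 at 0.92, 0.92 and 0.90. Among the members, Gabrg1 had an r of 0.97 with Gabra5 and of 0.93 with Gabrb2, whereas Gabra2 lay between -0.30 and 0.10 with each of the other 5 compared.

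Of the 12 further GABA-A subunit genes, 3 passed the filter in each comparison. Against dissociated samples 0 rose and 2 fell after sorting, and 0 of the 3 passed in either other comparison. Of 18 genes for anchoring and trafficking of the receptor, 17 were tested, and 1 rose and 6 fell after sorting. Plcl2, which encodes a relative of phospholipase C that binds the receptor's regulatory proteins, rose from 3.85 ± 0.290 in dissociated to 8.26 ± 0.606 FPKM. Gphn, which encodes the inhibitory synapse scaffold gephyrin, fell from 15.9 ± 1.07 to 11.2 ± 1.25 FPKM, and Lhfpl4, which encodes a receptor accessory protein, fell from 105 ± 7.88 to 73.3 ± 10.3 FPKM. Between intact and dissociated samples 7 of the 17 rose and 1 fell.

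The GABA-B receptor, a G protein-coupled receptor for the same transmitter, showed other values. Gabbr1 and Gabbr2, its subunits, had means of 121 ± 3.88 and 36.4 ± 4.15 FPKM in dissociated samples and of 137 ± 13.3 and 42.3 ± 3.03 FPKM in MACS-sorted samples, and neither passed that test. Both were higher in MACS-sorted than in intact samples, where they were 89.5 ± 5.41 and 25.6 ± 6.51 FPKM, with adjusted p-values of 0.0013 and 0.012 by limma. The auxiliary subunit genes Kctd8 and Kctd16 rose after sorting, from 19.4 ± 1.52 to 30.8 ± 2.58 FPKM and from 13.5 ± 0.782 to 21.6 ± 2.69 FPKM. Of the 5 genes of this list tested, 2 rose and 1 fell against dissociated samples, and 4 rose and 1 fell against intact samples.

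Of 7 chloride cotransporter genes 4 were tested, and 1 rose and 3 fell after sorting. Slc12a2, which encodes the importer NKCC1, fell from 36.9 ± 3.71 to 22.9 ± 0.964 FPKM. Slc12a4, which encodes the exporter KCC1, fell from 6.67 ± 0.622 to 1.64 ± 0.538 FPKM, and Slc12a7, which encodes KCC4, rose from 5.59 ± 0.815 to 9.68 ± 2.87 FPKM. Of 5 glycine receptor genes Glrb, which encodes the beta subunit, was the only one tested. It rose from 40.1 ± 1.64 FPKM in intact to 61.8 ± 2.45 FPKM in dissociated samples and fell to 23.0 ± 2.19 FPKM after sorting. Of 9 genes for synthesis, uptake and breakdown of GABA 3 were tested after sorting, and 0 rose and 2 fell against dissociated samples.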

How the data were processed

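Polyadenylated RNA was sequenced by the authors with a directional kit, and per the labels reads were processed with TopHat2, SAMtools and Cufflinks 2.1.1 on build mm10. The deposited FPKM values were used as given. They carry no counts, and the authors' CuffDiff test was replaced by limma 3.58.1 (R 4.3.3) applied to log2(FPKM + 0.1) with the trend option, over genes averaging 1 FPKM or more in the 8 samples compared, with Benjamini-Hochberg adjustment and a limit of 0.05. The study's further criteria were kept. Members under the filter were compared by an exact permutation test. Promoters, positions and depth estimates were computed in Python with pandas. Tested on simulated data of 12098 genes, 95.5% of 200 genes changed by 1 log2 unit were called in the right direction. How often such a change would be called at the levels and spread of the members was not tested. Of other lists, values are given for genes called or among the 2 highest, and look-alikes are the 3 genes of highest r. The members and lists were chosen with earlier results of these data known. The labels do not say that replicates shared a number by design, and deviations of same-numbered samples correlated between -0.143 and 0.067. The limma p-values set each difference between groups against the spread between these samples. Each gene's variance was drawn towards that of genes of similar level. The spread is between single mice in intact samples and between pools of mice in the others. Alternatives were other pseudocounts, filters, scalings, criteria, fits and left-out samples. Some subunit genes are not reported here by name.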

Additional observations from a re-analysis of the deposited data

Results flagged for a closer look

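Of 54 groups of 4 values tested, 9 held a sample far from the other three by Dixon's criterion, under which chance marks about 1 in 20 groups. Among the members, intact 1 lay low for Gabra2, at 12.8 FPKM against 26.1 to 28.4, and for Gabrb2, at 1.64 against 3.49 to 3.81. MACS-sorted 2 lay low for Gabra5, at 0.478 FPKM against 0.871 to 0.922. MACS-sorted 1 lay low for Gabrb1, at 0.433 FPKM against 1.98 to 2.29. Among the other genes, intact 1 lay low for Gabbr2, at 15.8 FPKM against 28.2 to 29.2, and for Gphn, at 9.83 against 12.3 to 12.4. Dissociated 3 lay high for Gabbr2, at 42.6 FPKM against 34.1 to 34.4, and for Lhfpl4, at 117.2 against 101.0 to 102.4, and low for Slc12a2, at 31.4 against 38.1 to 39.2.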

How the results depend on the processing

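The members' fold changes kept their direction and side of the threshold in 289 of 314 recomputed values. The 84 recomputed shares moved by less than 1 SD. Leaving 1 of 4 samples out cannot move a mean by that much, and so this says nothing about the shares. Gabrg1, Gabrb2 and Gabra5 were lower after sorting at an adjusted p under 0.05 in every alternative that tested them (at a filter of 5 FPKM Gabrb2, Gabra5 and Gabrg1 were not tested). The log2 fold change of Gabra3 ranged from -0.21 to 0.35 against dissociated and from -0.073 to 0.49 against intact samples with each sorted or other sample left out. It turned, in MACS-sorted against dissociated samples without MACS-sorted 2 (-0.21), MACS-sorted 4 (-0.19), dissociated 1 (-0.02) or dissociated 3 (-9e-04) and without MACS-sorted 3 and 4 together (-0.15), and against intact samples without MACS-sorted 2 (-0.073) or 4 (-0.05) or 3 and 4 together (-0.0072). Members called after sorting against dissociated samples numbered 0 at a filter of 5 FPKM, 2 under size factors, quantile scaling or removal of red blood cell genes, 2 without MACS-sorted 3 and 4 together and 3 at a mean above 1 FPKM, and 1 to 2 with each sample left out. Against intact samples they numbered 3 at a mean above 1 FPKM and 0 to 1 with each sample left out. Over all genes, a log2 ratio beyond 1 left 1139, 165 and 1011 calls of 2486, 873 and 2235, a mean above 1 FPKM gave 1349 where 873 were called between dissociated and intact samples, and leaving out samples gave 579 to 885 there, with 579 without dissociated 3. Quantile scaling shifted the median of all genes to 0.10 and 0.13 for the sorted comparisons and the share of calls that were higher from 39.5% to 51.8% and from 41.3% to 51.3%, and under it Gabrb1 passed against both groups. The difference of Gabrg3 between dissociated and intact samples turned under quantile scaling (0.0642), and ranged from -0.116 to 0.0351 with each sample left out, positive without dissociated 1 (0.0294), 2 (0.0326) or 3 (7.8e-05) or intact 2 (0.00767) or 3 (0.0351). That of Gabrb1 ranged from 0.0643 to 0.259, with p = 0.029 (exact permutation test) without dissociated 3. Same-numbered samples did not deviate together. With the replicate number as a block Gabra5 did not pass between dissociated and intact samples (adjusted p = 0.072, limma). Nor did it pass with all 12 samples fitted (adjusted p = 0.20, limma). No other member changed its side of the threshold under the block. With the block 2507, 899 and 2229 genes were called. The causes were not tested. Levels under 1 FPKM limit Gabrg3 and Gabrb1.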
